A study of Mus musculus with 8 samples.

Results

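Collagens are the main structural proteins of the extracellular matrix, and each molecule is a triple helix of 3 chains encoded by separate genes. Fibrillar collagens form the tensile fibers of connective tissue, type IV chains form the sheet-like network of basement membranes, and the other families coat fibrils, form beaded filaments, anchor epithelia or span cell membranes. In tumors, fibrillar collagens are made mostly by fibroblasts and pericytes, whereas type IV chains are also made by endothelial cells. The genes described here were all genes of the count table whose symbol had the form Col, number, a, number and whose raw counts summed to at least 80 over the 8 tumors. Of the 24421 genes in the table, 45 had such a symbol and 40 reached 80 counts. One of the 40, Col4a3bp, encodes a ceramide transfer protein and no collagen, and it was left out of the classes (33.9 to 47.1 CPM over the 8 tumors, log2 fold change 0.09). The other 39 were 11 fibrillar, 6 basement membrane and 22 other collagen genes. Just under the limit lay Col9a2 with 54 counts and Col9a1 with 25, and just above it lay Col4a3 with 82, Col26a1 with 85 and Col22a1 with 104.

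The data were bulk RNA-seq counts of 8 MC38 tumors, 4 photoconverted and 4 control tumors (4 mice a group). MC38 is a mouse colon adenocarcinoma line. All tumors grew from 250000 cells given to female B6 Kaede mice of 9 weeks (C57BL/6 background), which carry Kaede, a fluorescent protein that turns from green to red under violet light. The tumors labelled photoconverted received 405-nm light for 3 min on day 10, at a diameter of about 5 mm, the control tumors received none, and all were collected 5 h later. The comparison asks whether light exposure altered the tumor. Each sample was a piece of tissue that mixed tumor and host cells, so a lower level may come from fewer cells of a type or from less RNA per cell, which cannot be told apart here. Markers of fibroblasts, pericytes and endothelium were present in every tumor, whereas only 3 of 8 epithelial markers passed the expression filter, with a summed level of 3.42 to 6.16 CPM over the list.

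Total counts ranged from 12576615 to 35844417 per tumor. Rn45s, the precursor of ribosomal RNA, took 2.70% to 9.65% of the counts in Photoconverted 1, 2 and 3 and in Control 1 and 3, and 21.9%, 35.7% and 23.2% in Photoconverted 4, Control 2 and Control 4. Control 2 had the highest Rn45s share and the lowest total, and it stood apart from all other tumors in its collagen genes, so results are given with and without it. Values are CPM (counts scaled to libraries of equal size, with TMM factors), and log2 fold changes are photoconverted over control from edgeR's quasi-likelihood test.

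No collagen gene passed the test between photoconverted and control tumors. In edgeR's quasi-likelihood test, 0 of the 38 collagen genes tested had an adjusted p under 0.05 (Benjamini-Hochberg over 14468 genes), where the share of all genes called was 0.0%. Col4a3, with the fewest counts, did not pass the expression filter. At an unadjusted p under 0.05, 1 collagen gene was lower, Col11a1, against 0.574% of all genes lower at that level, and 0 were higher, against 1.65%. DESeq2's Wald test also called 0 collagens after adjustment and 1 without it, against 3.06% of all genes without it, and called 19 of all genes after it. For 0 of the 39 genes were the groups of tumors without overlap in CPM, against 1.33% of all genes tested. Over all 8 tumors, the fibrillar genes had a median log2 fold change of -0.30, with 10 of 11 below 0. The 5 tested basement membrane genes had a median of -0.24, with all 5 below 0, and the 22 other genes had a median of -0.06, with 13 below 0. The median of all genes tested was -0.01, with 53.2% below 0. The class medians below 0 rested on Control 2, though not every single gene did. Without it, the medians were 0.08 for fibrillar genes, with 9 of 11 above 0, and 0.0037 for the same 5 basement membrane genes, with 3 above 0. The other collagens then had a median of 0.20, with 15 of 22 above 0, whereas the median of all genes remained -0.01.

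**Figure D1:**
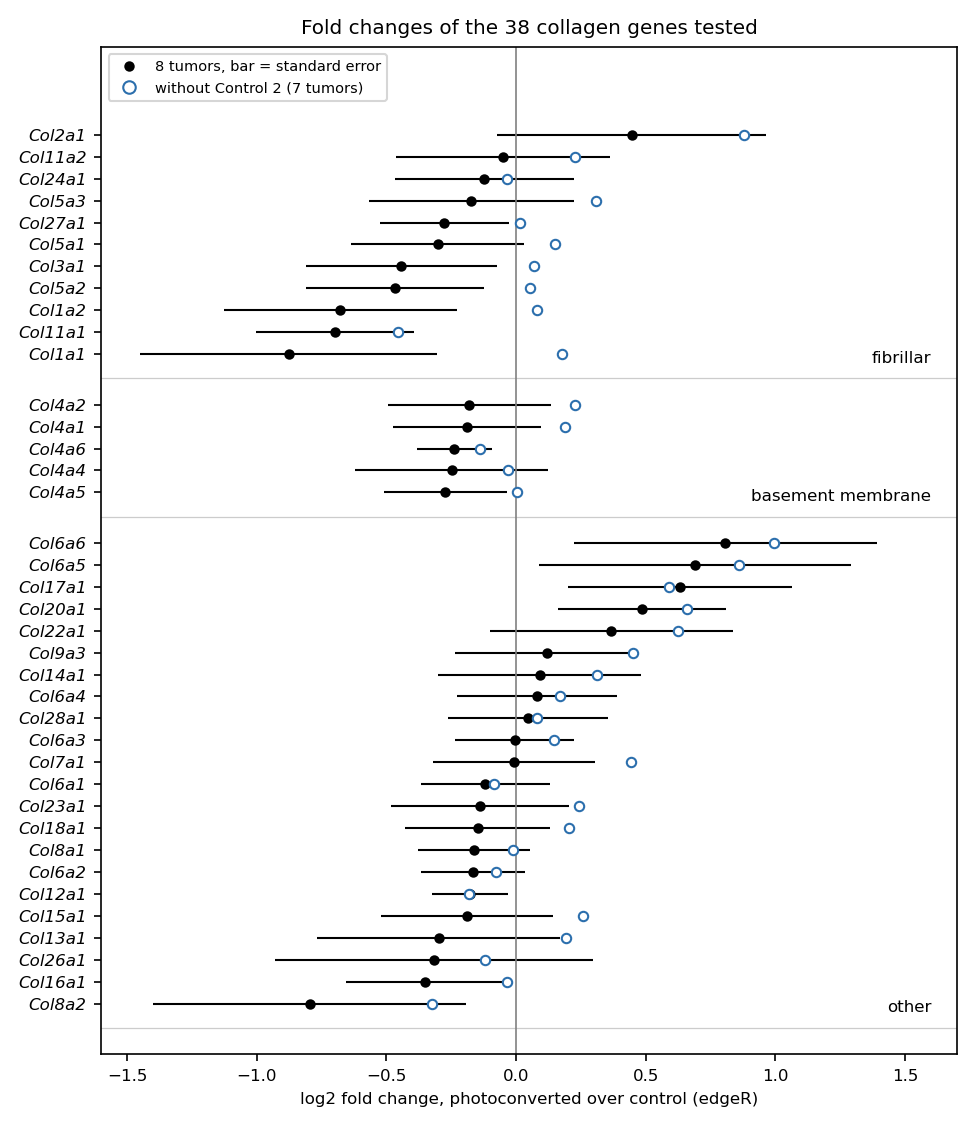
Log2 fold change (photoconverted over control, x axis) of each collagen gene tested, by class. Black points and bars are the edgeR estimate and standard error over 8 tumors, and open circles are the estimate without Control 2, which moved Col1a1 from -0.88 to 0.18 and Col1a2 from -0.68 to 0.08.

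Promoter letters are shown for 4 genes with unlike values: Col3a1, the most abundant, Col11a1, with the smallest p over all tumors, and Col5a3 and Col7a1, with the 2 smallest p among collagens in the 5 tumors whose Rn45s share was below 10%. Each line gives the 100 bases before the RefSeq start on GRCm38.p6, 5′ to 3′ on the gene's strand. The positions are chr1:45311438-45311537 (plus) for Col3a1, chr9:20815068-20815167 (minus) for Col5a3, chr9:108953486-108953585 (plus) for Col7a1 and chr3:114030440-114030539 (plus) for Col11a1. Capitals mark CCAAT, the binding motif of NF-Y, the TATA box TATAAA, the GC box GGGCGG bound by Sp1, and the core of heat shock elements, GAANNTTC or TTCNNGAA, on either strand.
Col3a1: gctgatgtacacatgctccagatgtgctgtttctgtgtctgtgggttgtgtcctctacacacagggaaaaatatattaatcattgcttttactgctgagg
Col5a3: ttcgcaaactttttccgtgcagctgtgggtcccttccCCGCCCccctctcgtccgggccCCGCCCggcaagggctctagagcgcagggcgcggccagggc
Col7a1: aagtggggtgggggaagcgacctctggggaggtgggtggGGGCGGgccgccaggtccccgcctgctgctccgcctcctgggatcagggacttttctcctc
Col11a1: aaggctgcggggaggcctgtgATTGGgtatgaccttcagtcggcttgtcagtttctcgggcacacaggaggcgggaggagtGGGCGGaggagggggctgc
The stretch of Col3a1 had 43% GC and no marked letters, whereas those of Col5a3, Col7a1 and Col11a1 had 72%, 71% and 65% GC and held GC boxes. In windows from 250 bases before to 50 after the start, 20 of the 30 collagen genes with a promoter in the RefSeq table held GGGCGG (66.7%), against 38.2% of 27025 genes. Col1a1 was among the collagen genes without a promoter there. Unlike the collagens, the 27025 genes were not chosen by their counts, so the 2 shares are not matched for expression. CCAAT was found in 11 of 30 (36.7%) against 41.1%, and TATAAA in 4 of 30 (13.3%, Col3a1 among them) against 15.7%. The heat shock core was found in 2 of 30 (6.67%), Col17a1 and Col4a5, against 17.0% of all genes. A match gives letters in a window and not a bound site.

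The fibrillar collagens were led by Col3a1, Col1a1 and Col1a2, which encode the chain of type III collagen and both chains of type I collagen, the main proteins of stromal fibers. Per kilobase of exon they had the 3 highest mean levels of all collagen genes, with 417, 235 and 176 CPM per kilobase. On GRCm38, Col3a1 lies at chr1:45311538-45349706, Col1a1 at chr11:94936224-94953042 and Col1a2 at chr6:4504814-4541544, all on the plus strand. Col1a1 had 737, 967, 945 and 1275 CPM in Photoconverted 1 to 4 and 767, 4607, 751 and 1086 CPM in Control 1 to 4. Control 2 lay above every other tumor, while the remaining control tumors lay within the range of the photoconverted ones. Photoconverted tumors had a mean of 981 ± 222 CPM and control tumors one of 1803 ± 1876 CPM (SD, n = 4 for either group). The log2 fold change of -0.88 had a standard error of 0.57 and did not pass the test (adjusted p = 0.999 in edgeR's quasi-likelihood test). Without Control 2, the mean of the control tumors was 868 CPM and the log2 fold change was 0.18.

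Col1a2 had 654, 620, 867 and 757 CPM in Photoconverted 1 to 4 and 759, 2585, 583 and 711 CPM in Control 1 to 4. Col3a1 had 1739, 1938, 2445 and 1739 CPM in photoconverted tumors and 2470, 5063, 1619 and 1532 CPM in control tumors. The groups overlapped for both genes, Control 2 was again the highest tumor, and for Col3a1 Control 1 was the second highest. The log2 fold changes were -0.68 (standard error 0.45) for Col1a2 and -0.44 (standard error 0.37) for Col3a1, with adjusted p = 0.999 in edgeR for both. They turned to 0.08 and 0.07 without Control 2.

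Type V chains, which are built into type I fibrils and set their diameter, came next. Per kilobase Col5a3 (97.8) and Col5a1 (88.0) had higher levels than Col5a2 (31.0 CPM per kilobase). Col5a3 ranged from 489 to 706 CPM in photoconverted tumors and had 273, 1175, 402 and 688 CPM in Control 1 to 4. Its low values were therefore in Control 1 and 3 and its high ones in Control 2, Photoconverted 4 and Control 4, the tumors rich in Rn45s. Col5a1 ranged from 541 to 860 CPM in photoconverted tumors and from 532 to 714 CPM in control tumors other than Control 2, which had 1480 CPM. Col5a2 ranged from 151 to 206 CPM in photoconverted tumors and from 151 to 191 CPM in control tumors other than Control 2, which had 456 CPM.

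Col11a1, which encodes a chain of the minor fibrillar collagen XI that is built into fibril cores, was the collagen gene with the smallest p. It had 5.15, 8.97, 5.12 and 9.64 CPM in Photoconverted 1 to 4 and 8.68, 17.5, 8.92 and 12.02 CPM in Control 1 to 4. For each replicate number the photoconverted tumor was below the control tumor of that number, although the labels state no pairing. The groups overlapped between 8.68 and 9.64 CPM. The log2 fold change of -0.70 (standard error 0.31) had an unadjusted p of 0.0476 (edgeR, adjusted p = 0.999), and it was -0.46 without Control 2. Blocking on the replicate number gave an unadjusted p of 0.0021 and an adjusted p of 0.532 in edgeR. Col11a1 was the 1 collagen gene that was lower in all 4 same-numbered pairs, against 7.18% of all genes tested. The remaining fibrillar genes were low in these tumors. Col27a1 had 17.3 to 39.7 CPM, and Col11a2, Col24a1 and Col2a1, a cartilage collagen, had at most 3.21 CPM in any tumor.

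**Figure D2:**
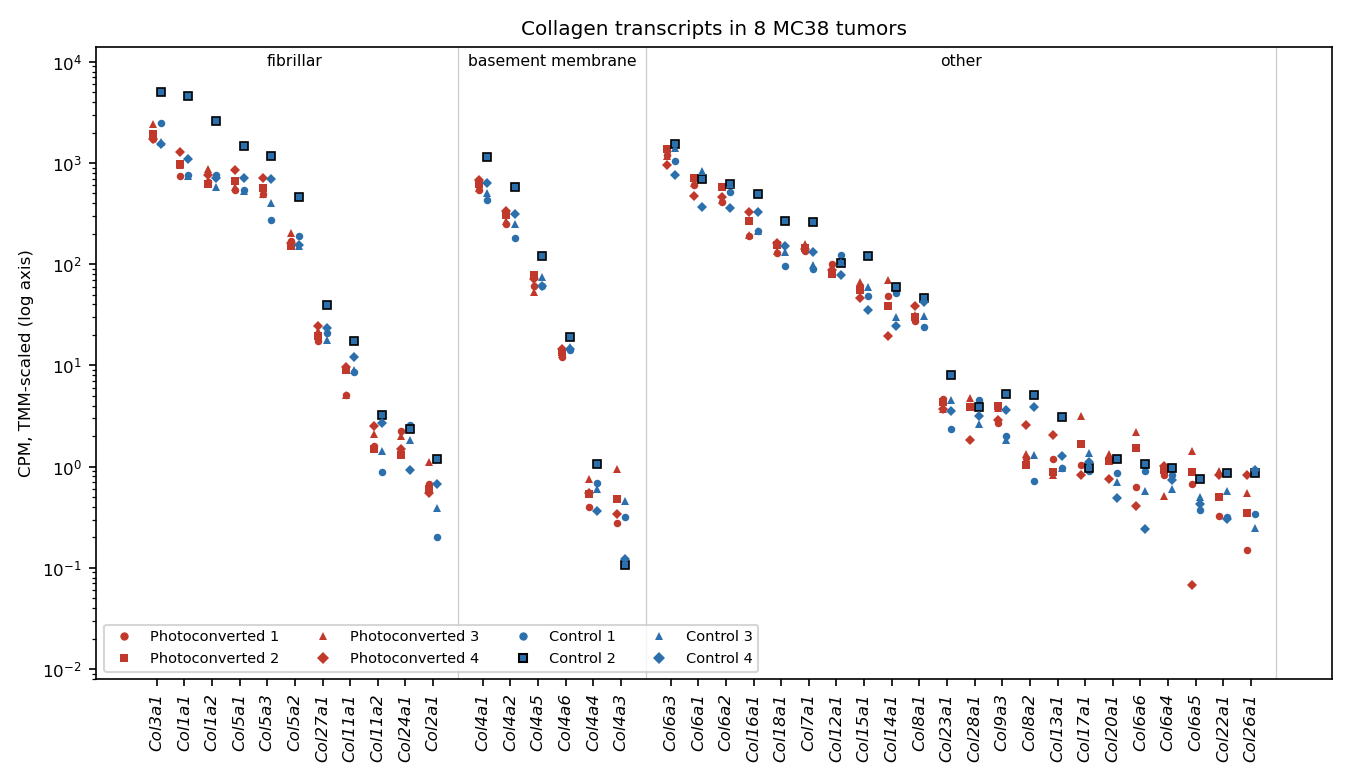
CPM (log axis) of the 39 collagen genes in each tumor, ordered by class and mean level. Red symbols are photoconverted tumors, blue symbols are control tumors and the outlined blue square is Control 2, which was the highest tumor for 26 of the 39 genes.

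Control 2 was the highest tumor for 10 of 11 fibrillar, 5 of 6 basement membrane and 11 of 22 other collagen genes, against 22.4% of all genes tested. The fibrillar exception was Col24a1, which was highest in Control 1 (2.57 CPM). Relative to the mean of the other 7 tumors, Control 2 had 4.94 times as much Col1a1, the highest such ratio among the 14468 genes tested. The ratio was 3.66 for Col1a2, 2.69 for Col5a2, 2.63 for Col3a1 and 2.33 for Col5a1. It was at least 2 for 7 of 11 fibrillar, 2 of 6 basement membrane and 6 of 22 other collagens, and for 2.52% of all genes tested. These ratios describe 1 library and were computed after its values had been seen. The collagens were not raised evenly in it. Col12a1, a collagen that coats fibrils, had a ratio of 1.07, Col6a1 had 1.13 and Col17a1, a membrane collagen of basal keratinocytes, had 0.67.

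The summed level of the 11 fibrillar genes was 4358, 4941, 5563 and 5539 CPM in Photoconverted 1 to 4 and 5037, 15430, 4068 and 4925 CPM in Control 1 to 4. The 7 tumors other than Control 2 thus lay within 4068 to 5563 CPM, whichever group they belonged to. The control mean was 7365 ± 5394 CPM (SD, n = 4) with Control 2 and 4677 ± 530 CPM (SD, n = 3) without it, beside 5100 ± 573 CPM in photoconverted tumors (SD, n = 4). All 39 collagens together took 0.90% to 1.11% of the counts outside Rn45s in 7 tumors and 2.49% in Control 2. Fibrillar genes made up 71.6% of the collagen counts in Control 2 and 48.2% to 59.7% in the other tumors.

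Which cells made the collagen transcripts of Control 2 was not tested. The 12 fibroblast markers summed to 371 CPM in Control 2, within the range of 288 to 578 CPM of the other tumors. Their median ratio of Control 2 to the other tumors was 0.84, with 1 of the 12 highest in Control 2. The 10 pericyte and smooth muscle markers summed to 204 CPM, within 144 to 243 CPM, with a median ratio of 1.06 and 4 of the 10 highest there. The 8 macrophage markers summed to 1041 CPM, within 421 to 1173 CPM, with a median ratio of 1.51 and 4 of the 8 highest there. Over all genes tested, the median ratio was 0.98 and 22.4% were highest there. Serpinh1, which encodes the chaperone Hsp47 that folds procollagen, had 448 CPM in Control 2 and 420 to 614 CPM elsewhere. Lox, a cross-linking enzyme of collagen fibers, had 32.8 CPM in Control 2 and 21.2 to 75.2 CPM elsewhere, and it had the lowest Control 2 ratio (0.68) of the 13 tested genes for processing and cross-linking. Those 13 genes had a median ratio of 1.23, with 5 of them highest in Control 2 and 0 at a ratio of 2 or more. Of the 20 genes that modify and fold collagen chains, 0 had a Control 2 ratio of 2 or more, with a median ratio of 1.03. The 13 tested degradation genes had a median of 1.09 and a highest ratio of 2.20, with 1 of them at 2 or more. The 14 tested genes of the fibril partner list had a median of 0.92 and a highest ratio of 2.06, with 1 of them at 2 or more. Of all genes tested, 2.52% had such a ratio. Lum and Dcn, proteoglycans of collagen fibrils chosen here after their values were seen, had ratios of 0.43 and 0.35.

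**Figure D3:**
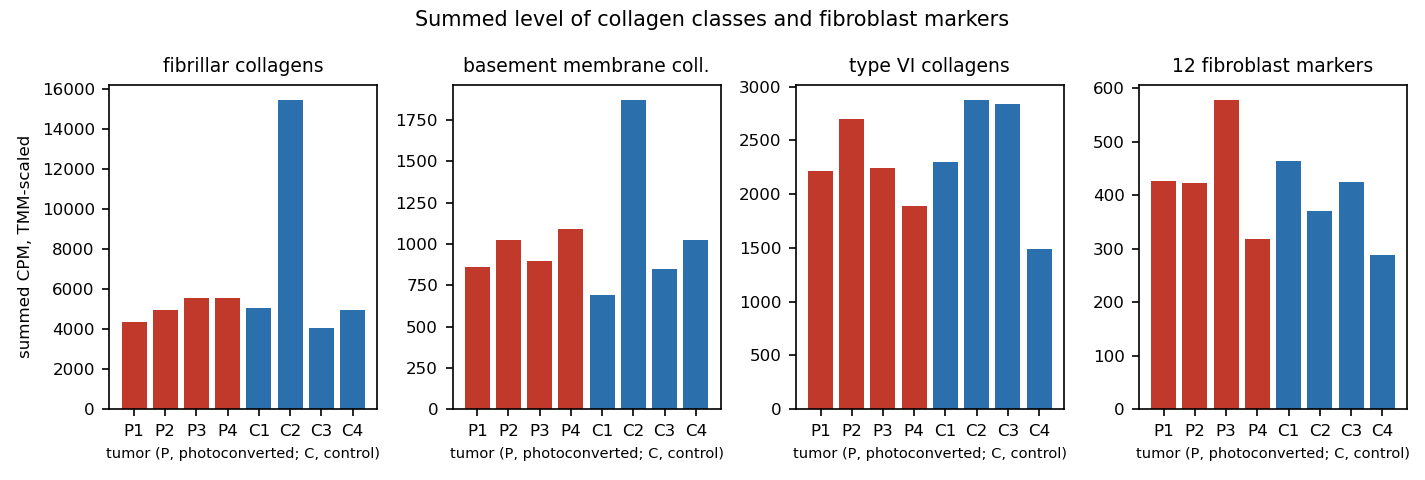
Summed CPM of the 11 fibrillar, 6 basement membrane and 6 type VI collagen genes and of 12 fibroblast marker genes in each tumor (P1 to P4 photoconverted, red; C1 to C4 control, blue). Control 2 stands at 15430 CPM for fibrillar collagens, against 4068 to 5563 CPM in the others, and at 371 CPM for the fibroblast markers.

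Basement membrane collagens were almost all Col4a1 and Col4a2, which encode the chains of the type IV network found under all endothelia. Col4a1 had 537, 622, 562 and 672 CPM in Photoconverted 1 to 4 and 431, 1157, 506 and 637 CPM in Control 1 to 4. Col4a2 had 251, 309, 269 and 334 CPM in photoconverted tumors and 182, 574, 250 and 313 CPM in control tumors. Both genes were highest in Control 2 and lowest in Control 1, and the groups overlapped. Their log2 fold changes were -0.19 (standard error 0.29) and -0.18 (standard error 0.31), with adjusted p = 0.999 in edgeR for both, and they were 0.19 and 0.23 without Control 2. Col4a5, a chain of specialized basement membranes, ranged from 52.6 to 78.1 CPM in photoconverted tumors and had 60.6, 122, 74.6 and 60.8 CPM in Control 1 to 4 (log2 fold change -0.27, standard error 0.24). Col4a6, its partner gene on the X chromosome, had 12.1, 13.5, 13.0 and 14.4 CPM in photoconverted tumors and 14.1, 19.0, 15.1 and 14.4 CPM in control tumors. Control 2 was the highest, the other 7 tumors lay within 12.1 to 15.1 CPM, and the log2 fold change of -0.24 was uncertain (standard error 0.15, adjusted p = 0.999 in edgeR). Col4a3 and Col4a4, chains of the adult kidney filter, stayed at 1.07 CPM or less in every tumor.

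The sum of the genes around the basement membrane was highest in Control 2, while the median gene was not raised there. The 17 listed laminins, nidogens and other partners summed to 2877 CPM in Control 2 and to 1867 to 2204 CPM in the other tumors. The 16 tested genes had a median Control 2 ratio of 1.01, with 0 at a ratio of 2 or more and 7 highest in that tumor. The 10 endothelial markers summed to 182 CPM in Control 2, within the range of 114 to 214 CPM of the others. Their median Control 2 ratio was 1.09, with 2 of the 10 at a ratio of 2 or more and 4 highest in that tumor. Of all genes tested, 2.52% had such a ratio and 22.4% were highest there. Whether endothelial content had a part in the type IV values was not tested.

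The other collagens were led by type VI, whose chains form beaded filaments around cells. Col6a3 had 1207, 1390, 1178 and 963 CPM in Photoconverted 1 to 4 and 1052, 1548, 1393 and 762 CPM in Control 1 to 4. Col6a1 had 600, 717, 632 and 470 CPM in photoconverted tumors and 730, 702, 830 and 365 CPM in control tumors. Col6a2 had 411, 585, 429 and 457 CPM in photoconverted tumors and 513, 622, 619 and 356 CPM in control tumors. Control 4 was the lowest tumor for all 3 genes, Photoconverted 4 was the second lowest for Col6a3 and Col6a1, and Control 2 was the highest for Col6a3 and Col6a2 by a small margin. The log2 fold changes were between -0.17 and -0.01 (standard errors 0.20 to 0.25, adjusted p = 0.999 for each in edgeR). The sum of the 6 type VI genes was 2876 CPM in Control 2, close to the 2843 CPM of Control 3, in contrast to the fibrillar sum. Col6a5 and Col6a6, late additions to the type VI family, were low and highest in Photoconverted 3, with 1.42 and 2.21 CPM.

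Among collagens that associate with fibrils, Col16a1 had 188, 266, 196 and 326 CPM in photoconverted tumors and 211, 497, 214 and 326 CPM in control tumors (log2 fold change -0.35, standard error 0.30, and -0.04 without Control 2). Photoconverted 4 and Control 4 were next below Control 2 and were equal at this precision. Col12a1 ranged from 80.9 to 101 CPM in photoconverted tumors and from 78.5 to 123 CPM in control tumors. Col20a1 had 1.151, 1.14, 1.34 and 0.752 CPM in photoconverted tumors and 0.857, 1.18, 0.711 and 0.488 CPM in control tumors, so the photoconverted values were mostly the higher ones, with overlap (log2 fold change 0.49, standard error 0.32, adjusted p = 0.999 in edgeR).

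Col18a1, a collagen of basement membranes whose end fragment is endostatin, had 128, 155, 136 and 163 CPM in photoconverted tumors and 94.9, 266, 131 and 152 CPM in control tumors (log2 fold change -0.15, standard error 0.28). Col7a1, one of the 4 genes whose promoter letters are given, which forms the anchoring fibrils that tie epidermis to dermis, had 135, 143, 158 and 141 CPM in photoconverted tumors and 89.1, 263, 97.7 and 131 CPM in control tumors. The 4 photoconverted tumors lay above 3 of the 4 control tumors and below Control 2. The fitted log2 fold change stood at -0.01 (standard error 0.31, adjusted p = 0.999 in edgeR) and 0.44 without Control 2. Col8a2, a network collagen, had the lowest fold change of the class, -0.80 (standard error 0.60), which was -0.33 without Control 2, with values of 0.714 to 5.14 CPM that were highest in Control 2, Control 4 and Photoconverted 4.

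In a fit of the 5 tumors whose Rn45s share was below 10%, 3 photoconverted with 2 control, 8 of 11 fibrillar, 3 of 6 basement membrane and 19 of 22 other collagens had a log2 fold change above 0. Of all genes in that fit, 49.5% were below 0. In that fit 6 of 39 collagens were higher at an unadjusted p under 0.05, against 6.31% of all genes, and 1 was lower, against 4.2% of all genes. After adjustment 0 collagens passed in edgeR, where 0.275% of all genes did. The 6 were Col7a1, Col5a3, Col9a3, Col2a1, Col6a5 and Col4a1, and the gene that was lower was Col12a1. Col7a1 had the smallest adjusted p, with a log2 fold change of 0.64 (unadjusted p = 0.00047, adjusted p = 0.0843 in edgeR), from 135, 143 and 158 CPM against 89.1 and 97.7 CPM. The log2 fold change of Col5a3 was 0.61 (unadjusted p = 0.0089 in edgeR), and that of Col12a1 was -0.33 (unadjusted p = 0.0314 in edgeR). Col9a3 shares 234 exon bases with Tcfl5 on the opposite strand, so its counts may hold reads of both genes. Keratinocyte markers also differed among these tumors: the listed genes summed to 18.8 and 21.2 CPM in Photoconverted 2 and 3 and to 1.71 to 4.30 CPM in all others, while Col7a1 in Photoconverted 1 (135 CPM), with a keratinocyte sum of 2.40 CPM, was also above Control 1 and 3. Col17a1 was highest in the same Photoconverted 2 and 3, with 1.67 and 3.19 CPM against 0.820 to 1.35 CPM. The part of adjoining skin in these values was not tested.

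The ratio of the raw counts of 2 genes within a tumor needs no library scaling, and 6 such ratios were taken, 5 between chains of one collagen type and 1 between Col3a1 and Col1a1 of types III and I. Col4a1 and Col4a2 lie head to head on chromosome 8, at chr8:11198423-11312826 on the minus strand and chr8:11312805-11449287 on the plus strand, with 22 shared exon bases at their starts. The Col4a1 to Col4a2 ratio was the steadiest of the 6 examined, from 2.01 to 2.37 over all tumors, also in Control 2 (2.02) where both genes were at their highest. The Col1a1 to Col1a2 ratio ranged from 1.01 to 1.78 and that of Col5a1 to Col5a2 from 2.82 to 5.28. No ratio separated the light groups. The mean Col1a1 to Col1a2 ratio was 1.37 ± 0.30 in photoconverted and 1.40 ± 0.33 in control tumors (SD, with n = 4 for either group).

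Several of these ratios went with the Rn45s share. The 3 tumors with a high share also had the lowest total counts, so share and sequencing depth cannot be told apart here. The Col3a1 to Col1a1 ratio was 1.10 to 1.41 in the 3 tumors with a high share and 2.01 to 3.22 in the other 5. The Col6a1 to Col6a2 ratio was 1.03 to 1.13 in the former and 1.23 to 1.47 in the latter, and the Col6a3 to Col6a1 ratio was 2.05 to 2.20 and 1.44 to 2.01. The 4 highest Col1a1 to Col1a2 ratios belonged to the 4 tumors with the highest Rn45s shares. Across the 38 collagen genes tested, which are not independent, the difference in log2 CPM between tumors with a high and a low share went with the GC content of the transcript (Spearman's rho 0.55), as it did across 13085 genes (rho 0.57). Control 2 is among the 3 tumors with a high share, so its collagen levels enter this difference, which is not given here without it. The median GC content was 56.2% for the collagens and 50.3% for all genes. The part of base composition in the collagen levels of Control 2 was not tested, and Photoconverted 4 and Control 4, with Rn45s shares of 21.9% and 23.2%, had fibrillar sums of 5539 and 4925 CPM.

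**Figure D4:**
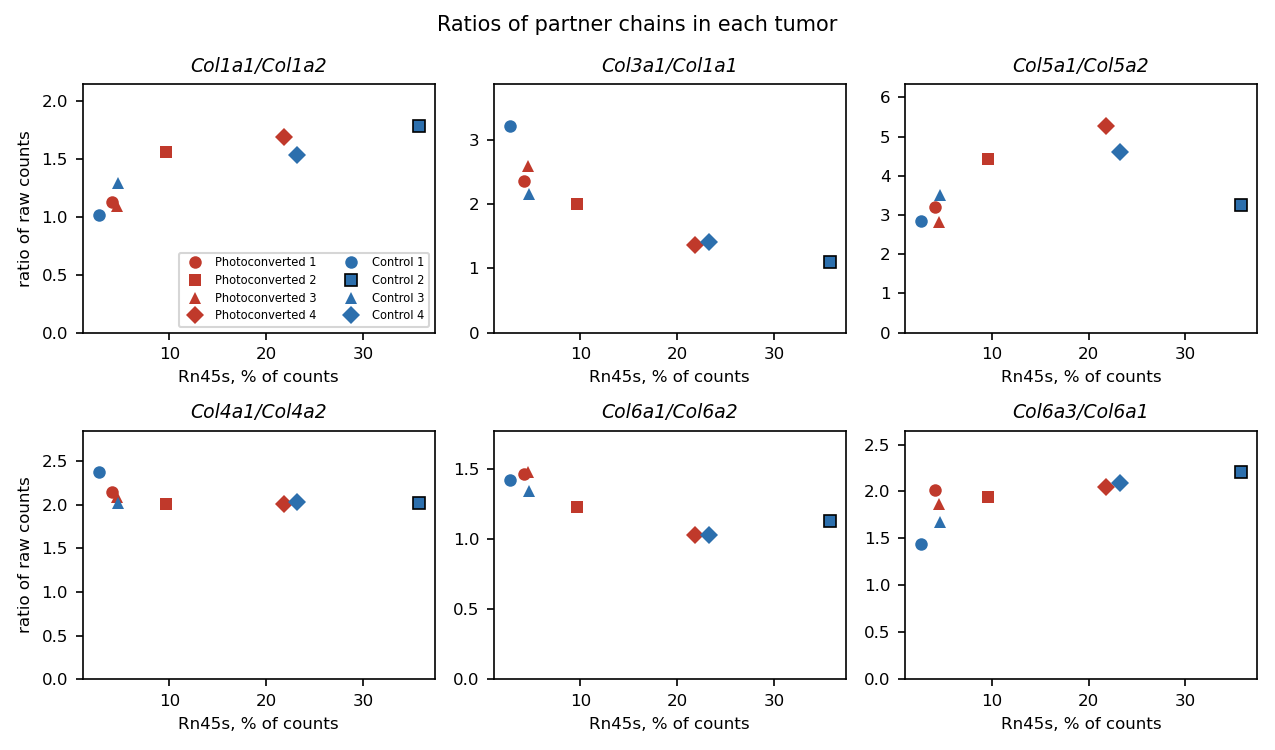
Ratio of raw counts of 6 pairs of collagen genes (y axes) against the share of counts on Rn45s (x axes) in each tumor. The Col4a1 to Col4a2 ratio stays within 2.01 to 2.37, while the Col3a1 to Col1a1 ratio is 1.10 to 1.41 in the 3 tumors above 20% and 2.01 to 3.22 in the other 5.

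Genes that act on collagen were not called either. Of the lists of genes for chain modification and folding (20 tested), processing and cross-linking (13), degradation (13), receptors (11), proteoglycans and fibril partners (14), basement membrane partners (16) and transcription regulators (15), 0 genes passed after adjustment in edgeR's test. The modification and folding genes had a median log2 fold change of -0.08, with 6 above and 14 below 0. Serpinh1 had 485, 492, 479 and 614 CPM in photoconverted tumors and 506, 448, 420 and 593 CPM in control tumors (log2 fold change 0.07, standard error 0.15). The 2 tumors numbered 4 were its highest. Fkbp14 and P3h3, which act on procollagen in the endoplasmic reticulum, had log2 fold changes of -0.33 and -0.20.

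The medians were 0.04 for processing genes, 0.07 for degradation genes, 0.03 for receptors, 0.10 for fibril partners, -0.01 for basement membrane partners and 0.06 for regulators. Mmp8, the collagenase of neutrophils, was the 1 gene of the 102 tested in these lists with an unadjusted p under 0.05 (adjusted p = 0.999 in edgeR), against 2.23% of all genes tested. It had 1.28, 2.21, 3.03 and 0.478 CPM in photoconverted tumors and 0.885, 0.428, 0.924 and 0.488 CPM in control tumors. Photoconverted 1 to 3 were above every control tumor and Photoconverted 4 was not. Timp1, an inhibitor of matrix metalloproteinases, had 145, 157, 144 and 128 CPM in photoconverted tumors and 105, 144, 112 and 122 CPM in control tumors (log2 fold change 0.25, standard error 0.13). Lox had a log2 fold change of 0.18 (standard error 0.40). The remaining named genes had log2 fold changes of 0.40 for Tll1 and 0.17 for Pcolce2, which process procollagen, 0.33 for Cd44 and 0.63 for Cd36 among receptors, 0.75 for Prelp and -0.28 for Matn2 among fibril partners, 0.73 for Smoc2 among basement membrane partners, and 0.46 for both Ctgf and Tgfb2 among regulators. None of these had an unadjusted p under 0.05. Without Photoconverted 3, the value of Cd36 was 0.16, that of Prelp 0.33 and that of Tll1 0.18.

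Markers of other tissues moved among the tumors beside these values. The 12 skeletal muscle markers were all above 0 in log2 fold change (median 1.13), as were the 8 adipocyte markers tested (median 0.96) and the 3 keratinocyte markers tested (median 1.84). Each list had its highest sum in Photoconverted 3. So did the fibroblast, pericyte, endothelial, cartilage, Schwann cell and macrophage lists, whereas the epithelial list was highest in Photoconverted 2. The 12 fibroblast markers had a median of 0.28, with 11 above 0, and the 8 macrophage markers a median of -0.09. The part of these tissues in the collagen values was not tested.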

How the data were processed

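For 8 tumors the authors deposited unnormalized counts by gene symbol. In their other table, the deposited signal values were these counts over the size factor that DESeq2 gives each library (0.416 to 1.77). The submitters' processing notes list CASAVA, FastQC, Trim Galore, HISAT2, featureCounts and DESeq2 and the build mm10. Versions, annotation and the strand setting of counting are not given in the sources used here, so reads of overlapping genes cannot be assigned to a strand. The library kit is SMARTER in the labels and TruSeq in the methods of the paper, both for stranded total RNA.

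Raw counts were tested with edgeR 4.0.16 in R 4.3.3 (TMM, filterByExpr by group, glmQLFit, glmQLFTest, Benjamini-Hochberg over all genes tested, threshold 0.05), with DESeq2 1.42.0 and limma 3.58.1 (log2 of the deposited normalized values plus 1) as alternatives. The standard error is the log2 fold change divided by the square root of F. CPM used TMM scaling and log2 CPM a prior count of 2. The procedures were tested on simulated data. Exon lengths, coordinates and transcript GC content came from GENCODE vM21 on GRCm38, which matched all 40 symbols, and promoters from RefSeq.

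Groups and replicate numbers came from the labels, and 4 mice per group are stated. Same-numbered tumors deviated together from their group means (r = 0.60, 0.11, 0.41 and 0.62), all above the limit of 0.1 set for pairing. This limit does not establish that the numbers pair the tumors, and the main fit was not blocked. Some tumors with different numbers correlated as much, up to 0.48 for Photoconverted 3 with Control 1. Control 2 correlated more with Photoconverted 4 (0.35) than with Photoconverted 2 (0.11). The labels state no pairing. All pairs of libraries within a group differed beyond counting noise. The members and lists were chosen with earlier results of these data known. Genes with values in every tumor were the 3 highest fibrillar, 3 highest basement membrane and 6 highest other collagens, the 5 collagens with the smallest p and any with groups that did not overlap. Up to 2 genes per list with the smallest p, Serpinh1 and Lox were named too, and 1 gene so chosen is not reported here. Col5a1, Col5a2, Col5a3, Col24a1, Col2a1, Col8a2, Col9a3, Col12a1, Col17a1, Col6a5, Col6a6, Lum and Dcn were chosen after their values were seen, as were the ratios of Control 2, the direction within pairs and the median of the same 5 basement membrane genes without Control 2. Genes with few counts are measured with less precision.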

Additional observations from a re-analysis of the deposited data

Results flagged for a closer look

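In 108 groups of 4 tumors, 7 held a tumor far from the other 3, and 4 of the 7 were Control 2. At a level of 5%, 5.4 such groups are expected for independent, normally distributed values. The groups were not independent, as the fibrillar sum contains Col1a1, Col1a2 and Col5a2, so 5.4 is only a rough guide. Control 2 had 4607 CPM of Col1a1 against 1086 CPM in the nearest control tumor, 2585 CPM of Col1a2 against 759 CPM, 456 CPM of Col5a2 against 191 CPM, and a fibrillar sum of 15430 CPM against 5037 CPM. Control 3 had 24.9 CPM of P3h3, below the 33.4 CPM of the nearest control tumor. Photoconverted 4 had 614 CPM of Serpinh1 against 492 CPM in the nearest photoconverted tumor. Control 1 had a Col4a1 to Col4a2 ratio of 2.37 against 2.04 in the nearest control tumor.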

How the results depend on the processing

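The count of collagen genes called was 0 under every alternative run: DESeq2's Wald test, DESeq2's size factors in edgeR, limma, no expression filter, robust dispersion, Rn45s left out, the 5 tumors whose Rn45s share was below 10%, the replicate block, and each tumor left out in turn. Over all genes it was 19 in DESeq2, 42 in the 5 tumors and from 0 to 11 with 1 tumor left out, the latter without Photoconverted 4. Of 704 log2 fold changes of 44 genes under these alternatives, 662 had the direction found with all 8 tumors. In the 5 tumors it turned to 0.22 for Col1a1, 0.088 for Col1a2, 0.29 for Col4a1, 0.36 for Col4a2, 0.041 for Col6a3, 0.030 for Col16a1, 0.30 for Col18a1, 0.64 for Col7a1, 0.15 for Col5a1, 0.035 for Col5a2, 0.61 for Col5a3, 0.25 for Col8a2 and -0.089 for Lox, in a comparison with fewer tumors. With the replicate block it turned to 0.035 for Col6a3, 0.135 for Col7a1 and 0.034 for Col5a3, and the block changed no call. In limma it turned to 0.037 for Col6a3, 0.13 for Col7a1 and 0.029 for Col5a3, and with no filter to 6.5e-05 for Col6a3. The cause of these turns was not tested.

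With each tumor left out in turn, the log2 fold change ranged from -0.64 to 0.068 for Col3a1, -1.13 to 0.18 for Col1a1, -0.90 to 0.080 for Col1a2, -0.36 to 0.19 for Col4a1, -0.38 to 0.23 for Col4a2, -0.38 to 0.0037 for Col4a5, -0.33 to 0.20 for Col18a1, -0.18 to 0.44 for Col7a1, -0.46 to 0.15 for Col5a1, -0.63 to 0.054 for Col5a2 and -0.42 to 0.31 for Col5a3, each highest without Control 2. It ranged from -0.17 to 0.15 for Col6a3, -0.32 to 0.013 for Col6a1, -0.084 to 0.45 for Col9a3, -0.35 to 0.070 for Col24a1, -0.021 to 0.18 for Serpinh1 and -0.075 to 0.60 for Lox. The ratio of the group means of the fibrillar sum was 0.69 with all tumors and 1.09 without Control 2. Over the same settings Col16a1 ranged from -0.53 to -0.04 and Col8a2 from -1.14 to -0.33, both nearest to 0 without Control 2. With Col4a3, which passes the filter in that fit, the basement membrane median without Control 2 was 0.10.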
